A study of Mus musculus with 123 samples.

Results

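The lungs of BALB/c mice sensitized to ovalbumin (OVA), an egg protein used as an experimental allergen, were compared with the lungs of naive BALB/c mice at 0 h, the earliest of the 8 times of a challenge study. Both groups held 8 mice, with 1 array and 1 lung RNA sample per mouse, so that 16 arrays entered this comparison, beside 107 others of the series. They were chosen by their labels alone, as sensitized or naive animals sampled at 0 h. All other arrays served to estimate the spread of each gene, and the groups at 2 h (8 sensitized and 7 naive mice) and 168 h (8 and 8 mice) were set beside those at 0 h. The design text has both arms challenged with OVA, whereas the sample titles of naive mice carry the word PBS. The sources used here do not say what the naive mice received or whether 0 h precedes or follows a challenge, so sensitization and any earlier airway challenge cannot be told apart. Age, sex, and the dose and route of OVA are not given either. Every one of 13053 genes with a measured probe set was examined, in whole lung, where fewer cells of a type and less RNA per cell cannot be told apart.

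In allergic airway disease, helper T cells and innate lymphoid cells release IL-4, IL-5 and IL-13. IL-13 acts through the receptor chain IL-4Rα and the transcription factor STAT6 on airway epithelium, where secretory cells become goblet cells that store and release mucins, and on macrophages and dendritic cells, which then make chemokines for eosinophils and T cells. Sensitized mice that have inhaled the allergen are known for goblet cell metaplasia, inflammation around airways and vessels, and antibody-producing plasma cells.

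Levels are log2 signals of 1 probe set per gene, differences (sensitized minus naive) carry the standard error (SE) from a limma model, and a gene was called at a Benjamini-Hochberg adjusted p under 0.05 over all genes. At 0 h 3457 genes (26.5%) were called, 1850 (14.2%) higher and 1607 (12.3%) lower. In 258 genes (1.98%) all 8 sensitized mice lay above all 8 naive mice, and in 79 genes (0.605%) all lay below. Lung markers were at high levels in both groups: surfactant protein Sftpb ranged from 13.33 to 13.74 (median 13.68) in sensitized and from 13.70 to 13.85 (median 13.78) in naive lungs, and the endothelial cadherin Cdh5 from 11.22 to 11.77 (median 11.59) and from 11.59 to 11.79 (median 11.71). Array medians spanned 9.36 to 9.43 over the 16 arrays. The actin 3′ minus 5′ control difference, a measure of RNA integrity, ran from 1.27 to 1.56 in sensitized and from 1.28 to 1.55 in naive samples (exact two-sided permutation test, p = 0.841). The same difference for the pyruvate carboxylase control probe sets ran from 2.21 to 3.10 (median 2.66) in sensitized and from 1.88 to 2.26 (median 2.14) in naive samples (exact two-sided permutation test, p = 0.000311), and its part in the results below was not tested.

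Mice within both groups stood apart. Sensitized mice 1 and 6, numbered in the order of the deposited samples, were the 2 highest of the 8 sensitized mice in 1131 of the 1850 genes called higher (61.1%) and the 2 lowest in 1111 of the 1607 genes called lower (69.1%); over all genes tested they were so in 16.9% and 22.1%. The values of both mice helped to make these calls, so their order within called genes is not a separate result. The shares over all genes include the called genes. Without these 2 mice 683 genes (5.23%) were called, 537 (4.11%) higher and 146 (1.12%) lower. Naive mice 1 and 3 carried high squamous epithelium genes, with list means of 11.05 and 11.84 against at most 8.66 in any array of the series without that signal. Such signal was found in 6 arrays of the series, of which these were the 2 at 0 h, and without the 6 arrays 3055 genes were called, 1532 higher and 1523 lower. List counts are therefore given with all mice and, where they changed, without sensitized mice 1 and 6. Those of skeletal muscle, cardiac muscle and squamous genes are also given without the 6 arrays. Both choices were made with results of these data known. Each list count stands beside the 14.2% of all genes called higher and the 12.3% called lower.

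Goblet cell and mucus genes were higher in sensitized lungs, and Clca1 among them had the highest difference of all genes tested. Of 20 measured, 18 were called higher and none lower, with a median difference of 1.84 against 0.00 over all genes tested, and 17 were called higher without sensitized mice 1 and 6. Clca1, a secreted protease of goblet cells, ranged from 13.91 to 14.29 (median 14.05) in sensitized lungs and from 4.95 to 6.97 (median 5.68) in naive lungs, a difference of 8.37 ± 0.58 or 331-fold (adjusted p = 3.21e-23). The sensitized values lay within a narrow band near the top of the scale, far above every naive value. Every naive value lay below 7, the mean level used as the limit for dim genes, so the fold rests on dim naive signals. Muc5ac, the gel-forming mucin made by goblet cells, ranged from 10.14 to 11.95 (median 10.45) in sensitized and from 7.10 to 7.57 (median 7.25) in naive lungs (3.46 ± 0.31, adjusted p = 3.77e-16). Muc5b, the gel-forming mucin already made by resting mouse airways, ranged from 12.03 to 12.92 (median 12.35) in sensitized and from 9.79 to 11.10 (median 10.72) in naive lungs (1.80 ± 0.32, adjusted p = 1.38e-05). Neither mucin overlapped between the groups.

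The enzymes and partners that mucins need were higher with them. Gcnt3, which branches the sugar chains of mucins, ranged from 8.39 to 10.19 (median 9.09) in sensitized and from 4.87 to 5.34 (median 5.01) in naive lungs (4.08 ± 0.29, adjusted p = 9.95e-23). Fcgbp, a mucin-binding protein of secretions, ranged from 12.29 to 13.30 (median 12.60) and from 9.22 to 9.62 (median 9.54) in the same order (3.22 ± 0.25, adjusted p = 4.19e-20). Agr2, a disulfide isomerase that folds mucins, was higher by 2.55 ± 0.41 and the goblet cell stress sensor Ern2 by 1.25 ± 0.13. Galnt12, which starts mucin glycans, was higher by 0.61 ± 0.10. Of the secreted products, Tff2, a trefoil peptide, was higher by 1.80 ± 0.34, the airway defence protein Bpifb1 by 1.87 ± 0.44 and, outside the list, Retnlb, a resistin-like peptide of goblet cells, by 3.13 ± 0.37. Retnlb ranged from 6.29 to 11.34 (median 8.36) in sensitized and from 5.37 to 5.89 (median 5.56) in naive lungs, so that its spread among sensitized mice was wide while no value overlapped. Scin, which severs actin filaments, was higher by 4.09 ± 0.36 and Capn9, a protease of mucous epithelia, by 3.84 ± 0.33.

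Transcription factors that drive goblet cell differentiation were called as well. Foxa3 ranged from 7.35 to 9.19 (median 7.90) in sensitized and from 6.12 to 6.53 (median 6.40) in naive lungs (1.71 ± 0.18, adjusted p = 8.36e-13), and Spdef from 8.33 to 9.90 (median 8.74) and from 7.22 to 7.75 (median 7.53) (1.36 ± 0.17, adjusted p = 6.01e-10). All 8 sensitized mice lay above all naive mice in both. Creb3l1, a membrane-bound factor of secretory cells, was higher by 0.43 ± 0.10 (adjusted p = 0.000463) but by 0.26 without sensitized mice 1 and 6 (adjusted p = 0.0852). The fucosyltransferase Fut2 and the chaperone Dnajc10 were the 2 members not called, with differences of -0.05 ± 0.12 and 0.00 ± 0.03. Averaged over the list, the sensitized mice stood at 10.10 to 11.49 and the naive mice at 7.89 to 8.37, and sensitized mice 1 and 6, at 11.37 and 11.49, were above the other 6, at 10.10 to 10.58.

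**Figure D1:**
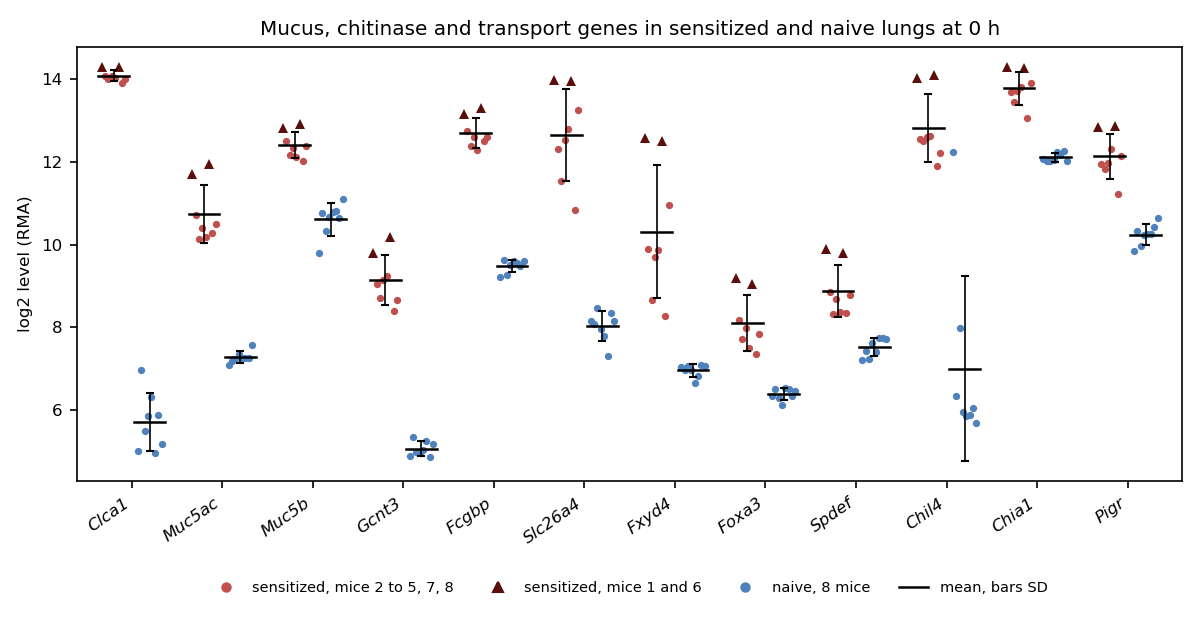
Log2 level (vertical axis) of 12 mucus, chitinase, transport and antibody transport genes in each mouse at 0 h, sensitized on the left and naive on the right of each pair, with sensitized mice 1 and 6 as triangles, horizontal lines for means and bars for the SD (n = 8). The groups do not overlap in 11 of the 12 genes; in Chil4 naive mouse 1, at 12.24, lies among the sensitized mice.

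Chitinases and chitinase-like proteins, which bind or cleave chitin and are induced by IL-4 and IL-13, were called higher in 4 of 6 measured genes, also without sensitized mice 1 and 6. Chil4 ranged from 11.89 to 14.11 (median 12.58) in sensitized and from 5.70 to 12.24 (median 6.00) in naive lungs (5.82 ± 0.66, adjusted p = 8.92e-12). Naive mouse 1 held the value of 12.24; the same mouse carried squamous and skeletal muscle signal. Chia1, the active acidic chitinase, ranged from 13.07 to 14.30 (median 13.76) in sensitized and from 12.02 to 12.27 (median 12.06) in naive lungs (1.67 ± 0.16, adjusted p = 1.09e-14). Chil3, the chitinase-like protein Ym1 of alveolar macrophages, ranged from 13.37 to 14.42 (median 14.26) and from 12.31 to 12.70 (median 12.48) (1.69 ± 0.16, adjusted p = 6.25e-15). Chil1, known as BRP-39, was higher by 0.42 ± 0.06 without overlap, and Ctbs and Chit1 differed by 0.13 ± 0.07 and -0.42 ± 0.18 and were not called.

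Of 14 measured airway ion and fluid transport genes 7 were called higher and none lower, 5 without sensitized mice 1 and 6. Slc26a4, the anion exchanger pendrin, which the goblet cell list counts too, ranged from 10.83 to 13.97 (median 12.67) in sensitized and from 7.30 to 8.47 (median 8.12) in naive lungs (4.62 ± 0.47, adjusted p = 1.43e-13). Fxyd4, a subunit that tunes the sodium pump, ranged from 8.27 to 12.59 (median 9.89) and from 6.64 to 7.10 (median 7.01) (3.35 ± 0.46, adjusted p = 2.27e-08). Slc5a1, a sodium and glucose cotransporter, was higher by 2.10 ± 0.31, the potassium channel Kcnj15 by 0.78 ± 0.12 and the chloride channel Cftr by 0.39 ± 0.09. Outside the list, the amino acid transporter Slc6a20a was higher by 2.32 ± 0.32. The 3 subunits of the epithelial sodium channel were not called, with Scnn1a at -0.17 ± 0.08, Scnn1b at -0.15 ± 0.09 and Scnn1g at -0.03 ± 0.10. Neither was Ano1, the calcium-activated chloride channel, at 0.01 ± 0.06.

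Plasma cell genes were higher in sensitized lungs, in a list that also counts the antibody transporter Pigr of epithelium. Of 19 measured genes of this list, Pigr among them, 11 were called higher and 1 lower, 5 and none without sensitized mice 1 and 6. Pigr, the receptor that carries dimeric IgA and IgM across epithelium, ranged from 11.22 to 12.88 (median 12.05) in sensitized and from 9.85 to 10.63 (median 10.25) in naive lungs (1.89 ± 0.20, adjusted p = 6.67e-13), with no overlap. Ighm, the heavy chain of IgM, ranged from 12.57 to 14.43 (median 13.60) and from 9.43 to 12.99 (median 10.99) (2.65 ± 0.50, adjusted p = 3.81e-05), and the ranges overlapped. Jchain, which joins IgA and IgM into polymers, was higher by 1.16 ± 0.26, Mzb1, a plasma cell chaperone cofactor, by 1.47 ± 0.26 and Eaf2, a germinal centre and plasma cell elongation factor, by 1.36 ± 0.27. Igha, the heavy chain of IgA, was not called at 0 h (0.38 ± 0.17, adjusted p = 0.0751). The plasma cell regulators Prdm1 and Xbp1 differed by 0.10 ± 0.10 and 0.10 ± 0.07 and were not called, and Sdc1, which epithelium also makes, was lower at -0.12 ± 0.04. Of 23 endoplasmic reticulum chaperone and secretion genes 2 were called higher and 1 lower, none without sensitized mice 1 and 6. B cell markers were not called in any of 11 genes, and 4 of 12 germinal centre and lymphoid aggregate genes were called higher and 1 lower, none of either without sensitized mice 1 and 6.

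Genes that multiciliated cells use to build many centrioles had a list mean of 9.30 to 9.86 in sensitized and 8.95 to 9.27 in naive mice, with no overlap. The list of 19 centriole amplification genes was chosen after values had been seen. Of 16 measured, 11 were called higher, 7 without sensitized mice 1 and 6, with a median difference of 0.27. Ccno, a cyclin-like protein needed for centriole amplification, ranged from 9.78 to 11.14 (median 10.51) in sensitized and from 8.88 to 9.52 (median 9.36) in naive lungs (1.26 ± 0.12, adjusted p = 1.09e-14). Deup1, a scaffold of the deuterosomes from which these centrioles grow, ranged from 7.59 to 9.35 (median 8.34) and from 6.74 to 7.48 (median 7.20) (1.31 ± 0.15, adjusted p = 7e-12). Foxn4, a transcription factor of early multiciliated cells, ranged from 7.57 to 8.40 (median 8.07) and from 6.74 to 7.44 (median 7.20) (0.89 ± 0.09, adjusted p = 2.56e-13). In these 3 genes all sensitized mice lay above all naive mice.

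The centriole assembly genes Stil and Plk4 were higher by 1.06 ± 0.15 and 0.66 ± 0.11, the transcription factor Myb, which acts early in this programme, by 0.47 ± 0.08, and Sass6, the cartwheel protein of new centrioles, by 0.26 ± 0.06. Cell cycle genes were higher in the same lungs, as given below, and the part of dividing cells in these values was not tested. Ccna1, a cyclin outside the list and known best from male germ cells, was higher by 1.69 ± 0.18 and did not overlap, from 7.83 to 9.69 (median 8.73) in sensitized and from 6.94 to 7.37 (median 7.18) in naive lungs. Foxj1, the master factor of motile cilia, was not called (0.27 ± 0.16, adjusted p = 0.189), nor were Rfx2, Rfx3, E2f4 and E2f5, at 0.00 ± 0.08, 0.12 ± 0.10, 0.01 ± 0.05 and -0.01 ± 0.06. Among 19 motile cilia genes 3 were called higher, a share near the 14.2% of all genes, and none lower, namely Rsph1 by 0.47 ± 0.13, Tekt1 by 0.29 ± 0.11 and Dnah11 by 0.27 ± 0.09, and none was called without sensitized mice 1 and 6.

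All 27 measured cell cycle and DNA replication genes were called higher, against 14.2% of all genes, with a median difference of 0.77; 19 were called higher without sensitized mice 1 and 6, with a median of 0.53. The size varied among sensitized mice: their list means ran from 8.56 to 9.78, with mice 1 and 6 at 9.78 and 9.75, against 8.25 to 8.57 in naive mice. Cdk1, the kinase that starts mitosis, ranged from 9.27 to 10.96 (median 9.93) in sensitized and from 8.81 to 9.28 (median 9.02) in naive lungs (1.09 ± 0.21, adjusted p = 6.85e-05). Of the mitotic cyclins, Ccna2 was higher by 0.91 ± 0.18 and Ccnb2 by 0.84 ± 0.18. Cdca8, a subunit of the chromosomal passenger complex, ranged from 8.02 to 9.87 (median 8.62) and from 7.34 to 8.06 (median 7.65) (1.16 ± 0.19, adjusted p = 3.52e-06), and its kinase Aurkb was higher by 0.86 ± 0.19. For Cdca8, 7 of 8 sensitized mice lay above every naive mouse.

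Spindle and exit genes followed the same direction, with the kinetochore motor Cenpe at 1.07 ± 0.17, the checkpoint kinase Bub1b at 0.88 ± 0.16 and Cdc20 and Ube2c, which direct mitotic proteins to degradation, at 0.90 ± 0.18 and 0.96 ± 0.18. Among genes of DNA replication were the helicase subunits Mcm3 at 0.69 ± 0.12 and Mcm7 at 0.31 ± 0.08 and the nucleotide enzymes Tk1 at 0.74 ± 0.15 and Tyms at 0.23 ± 0.09. Foxm1, the transcription factor of mitotic genes, had the smallest difference of the list at 0.19 ± 0.07 (adjusted p = 0.0354), and E2f1, a factor of replication genes, was at 0.40 ± 0.08. The rank of Foxm1 holds for the probe set used, and its other, dimmer probe set was higher by 0.60. Sapcd2, a protein of spindle orientation outside the list, was higher by 1.90 ± 0.23, from 9.09 to 11.27 (median 10.27) in sensitized and from 8.24 to 8.62 (median 8.37) in naive lungs.

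Promoter sequences of RefSeq (GRCm38.p6, from 250 bases before to 50 after each start) were at hand for 23 of the 27 genes. The letters TTTGAA or TTCAAA, on either strand, are those of the cell cycle homology region, through which the DREAM complex and its MuvB core act on mitotic genes. They were held by 12 of the 23 promoters (52.2%), by 15.6% of the promoters of genes called higher, by 127 of the 1268 of those called lower and by 11.7% of 10433 promoters of all genes tested. Within 50 bases of the start they were in 11 of the 23 (47.8%) and in 2.83% of all, a window chosen after the positions had been seen. The following 60 bases around the match nearest the start are shown for 6 of the called genes as examples of a match within 30 bases of the start; Kif11, Kif4 and Ncapg had one there too. Capitals mark the match, and the sequences run 5′ to 3′ on the strand of the gene.
Cdk1 (chr10:69352895-69352954, minus strand): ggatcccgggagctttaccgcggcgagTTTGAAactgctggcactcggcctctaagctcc
Ccnb2 (chr9:70421518-70421577, minus strand): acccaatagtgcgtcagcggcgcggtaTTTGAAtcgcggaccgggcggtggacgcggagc
Cdc20 (chr4:118437329-118437388, minus strand): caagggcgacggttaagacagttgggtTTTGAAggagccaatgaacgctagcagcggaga
Cdca8 (chr4:124936872-124936931, minus strand): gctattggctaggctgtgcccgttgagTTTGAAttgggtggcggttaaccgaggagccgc
Hmmr (chr11:40733397-40733456, minus strand): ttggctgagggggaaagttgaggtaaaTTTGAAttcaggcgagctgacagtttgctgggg
Ube2c (chr2:164769873-164769932, plus strand): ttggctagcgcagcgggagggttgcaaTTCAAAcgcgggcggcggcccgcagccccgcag
The match began 15 bases before the start in Cdk1, 18 before it in Cdc20 and 29 before it in Ube2c, and at base 5 after the start in Ccnb2, 9 in Hmmr and 14 in Cdca8. A match describes letters and shows no bound factor.

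**Figure D2:**
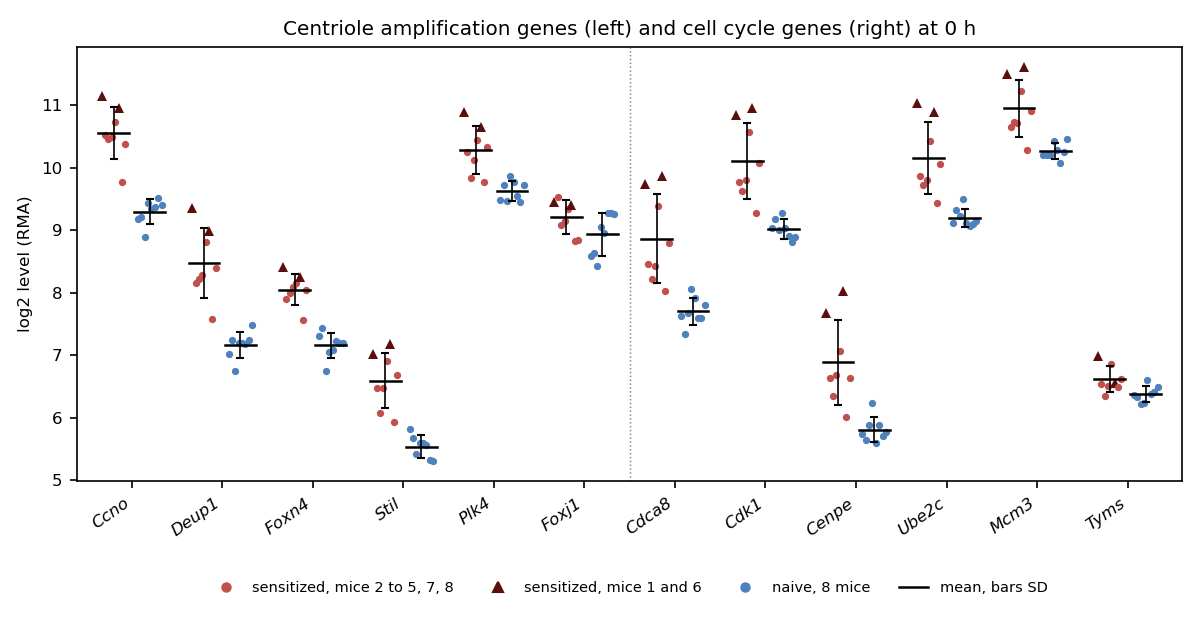
Log2 level (vertical axis) of 6 genes of centriole amplification and 6 cell cycle genes in each mouse at 0 h, sensitized on the left and naive on the right of each pair, with means and SD bars (n = 8) and sensitized mice 1 and 6 as triangles. Ccno, Deup1, Foxn4 and Stil do not overlap between the groups, while Plk4, Foxj1 and all 6 cell cycle genes do.

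Among type 2 cytokines and receptors 5 of 13 measured genes were called higher and 1 lower. Il13, the main inducer of goblet cells, ranged from 6.89 to 9.45 (median 7.43) in sensitized and from 6.38 to 6.54 (median 6.43) in naive lungs (1.36 ± 0.32, adjusted p = 0.000911). Every sensitized mouse lay above every naive mouse, but the difference was 0.87 without sensitized mice 1 and 6 (adjusted p = 0.0986). Il13ra2, the decoy receptor of IL-13, was higher by 1.29 ± 0.25, and was the 1 member of the list called without these mice (0.78, adjusted p = 0.0395). Il4 and Il5 were not called, at 0.38 ± 0.37 and 0.69 ± 0.29, and their highest sensitized values were 7.70 and 7.61 against sensitized medians of 6.38 and 5.88. The epithelial alarmins differed in direction, with Il33 higher by 0.42 ± 0.15 and Tslp lower at -0.28 ± 0.10, and neither was called without sensitized mice 1 and 6. The receptor chains Il4ra and Il13ra1, at 0.01 ± 0.09 and 0.07 ± 0.08, were not called.

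Activation and regulatory genes of T cells were higher in sensitized lungs. Of 16 helper and regulatory T cell genes 10 were called higher and none lower, 5 without sensitized mice 1 and 6. Foxp3, the factor of regulatory T cells, ranged from 7.82 to 8.49 (median 8.13) in sensitized and from 7.33 to 7.80 (median 7.53) in naive lungs (0.63 ± 0.11, adjusted p = 6.39e-06). Pdcd1, the inhibitory receptor PD-1, ranged from 6.39 to 8.39 (median 7.24) and from 5.73 to 6.19 (median 5.98) (1.33 ± 0.21, adjusted p = 9.68e-07). Neither gene overlapped between the groups. The costimulatory receptors Tnfrsf9, Icos, Tnfrsf4 and Tnfrsf18 were higher by 2.18 ± 0.38, 0.91 ± 0.19, 0.65 ± 0.17 and 0.60 ± 0.13. Gata3, the factor of type 2 helper cells, was higher by 0.27 ± 0.10 (adjusted p = 0.0425) and not called without sensitized mice 1 and 6. General T cell markers were called higher in 8 of 15 genes, such as Cd5 by 0.56 ± 0.16 and Cd4 by 0.36 ± 0.10, and in none without these mice; Cd8a and Cd8b1, at 0.11 ± 0.16 and -0.02 ± 0.13, were not called. Of 13 natural killer and cytotoxic genes 3 were called higher, 1 without sensitized mice 1 and 6, led by Klrg1, a receptor of effector lymphocytes, at 0.60 ± 0.14.

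CC chemokines, which draw eosinophils, monocytes and T cells, were called higher in 10 of 14 measured genes, 4 without sensitized mice 1 and 6, with a median difference of 0.93. Ccl8, a monocyte and T cell attractant, ranged from 11.36 to 13.22 (median 11.82) in sensitized and from 8.55 to 9.09 (median 8.96) in naive lungs (3.29 ± 0.37, adjusted p = 6.49e-12). Ccl17, a ligand of CCR4 on type 2 helper cells, ranged from 10.04 to 12.94 (median 11.18) and from 9.30 to 9.80 (median 9.59) (1.89 ± 0.32, adjusted p = 6.39e-06), and the other CCR4 ligand, Ccl22, from 8.34 to 10.99 (median 9.32) and from 7.35 to 7.94 (median 7.74) (1.78 ± 0.31, adjusted p = 6.39e-06). All 8 sensitized mice lay above the naive mice in these 3 genes. The eotaxin Ccl11 was higher by 1.53 ± 0.36 with all mice and by 1.07 without sensitized mice 1 and 6 (adjusted p = 0.0726). The other measured eotaxin, Ccl24, was not called (0.71 ± 0.34), and Ccl5, a product of T cells, differed by -0.02 ± 0.17.

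Most calls among CXC chemokines were lost without the same 2 mice. Of 15 measured, 8 were called higher and 1 lower, against 2 and none without sensitized mice 1 and 6. Cxcl3 and Cxcl5, ligands of the neutrophil receptor CXCR2, were higher by 3.26 ± 0.54 and 2.35 ± 0.56. Cxcl5 ranged from 5.91 to 11.32 (median 7.32) in sensitized and from 5.33 to 6.20 (median 5.63) in naive lungs, and its difference was 1.32 without the 2 mice (adjusted p = 0.142). The interferon-induced ligands of CXCR3, Cxcl9 and Cxcl10, were higher by 2.05 ± 0.50 and 1.36 ± 0.43 with all mice, by 1.42 and 0.80 without them, and were then not called. In Cxcl3 and Cxcl9 all 8 sensitized mice nevertheless lay above all naive mice, as in 1.98% of all genes. The lowest sensitized values were 6.30 and 6.90, and the highest naive values 5.49 and 6.73. Averaged over the list, mice 1 and 6 stood at 11.28 and 11.17 and the other 6 sensitized mice at 9.64 to 10.19, against 9.10 to 9.64 in naive mice. Cxcl12, a stromal chemokine, was called lower at -0.25 ± 0.09.

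**Figure D3:**
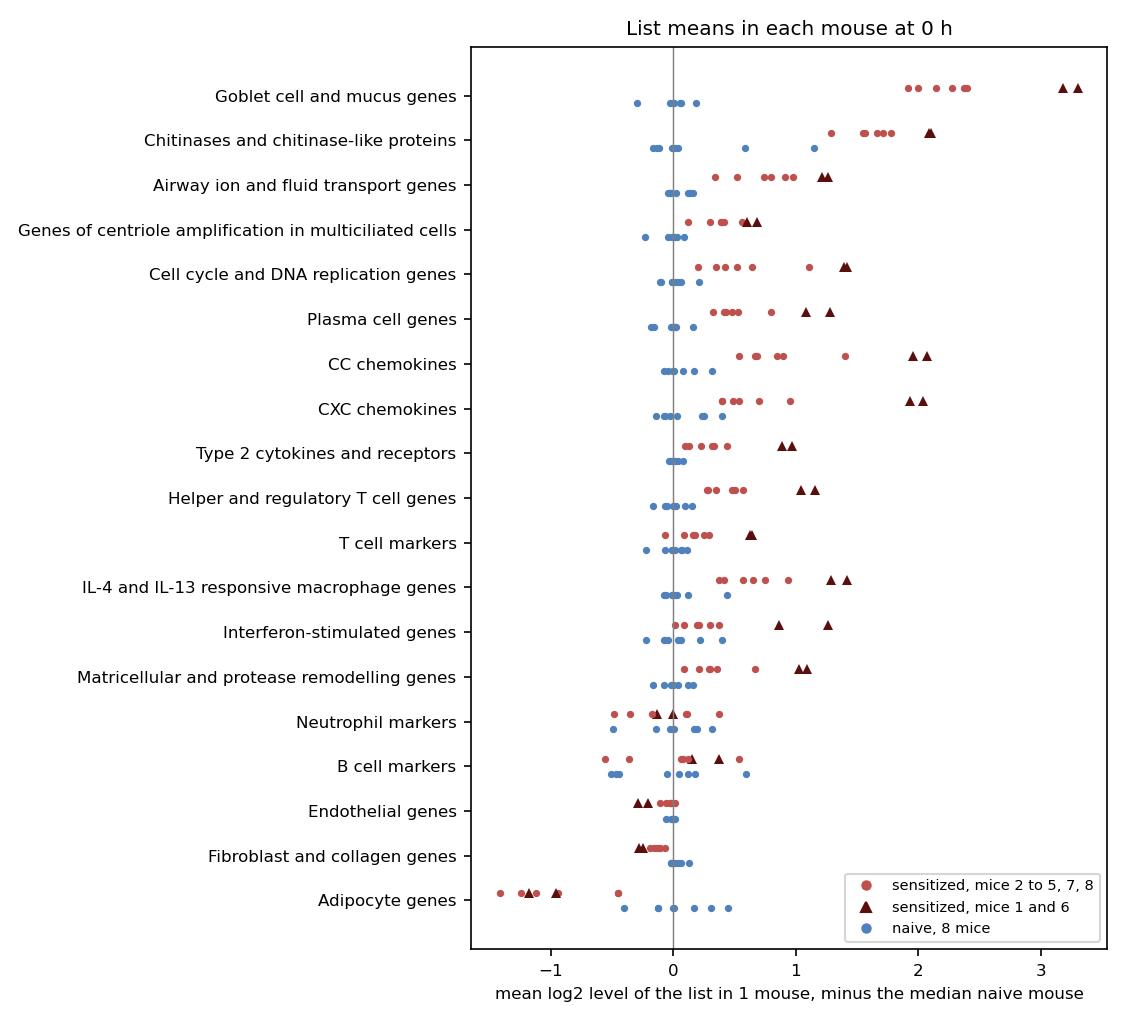
Mean log2 level of each of 19 gene lists in 1 mouse minus the median of the naive mice (horizontal axis), with the sensitized mice above and the naive mice below in each row and sensitized mice 1 and 6 as triangles. The goblet cell mean lies above every naive mouse in all 8 sensitized mice, while the CXC chemokine and interferon-stimulated means are farthest to the right in mice 1 and 6.

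Macrophage genes that respond to IL-4 and IL-13 were called higher in 10 of 16 measured genes, 6 without sensitized mice 1 and 6. Cd209e, a lectin of the DC-SIGN family, ranged from 6.95 to 9.12 (median 8.20) in sensitized and from 4.69 to 5.38 (median 4.95) in naive lungs (3.15 ± 0.44, adjusted p = 4.18e-08). Mgl2, a galactose-binding lectin of type 2 dendritic cells and macrophages, ranged from 9.78 to 11.50 (median 10.37) and from 8.98 to 9.47 (median 9.13) (1.34 ± 0.20, adjusted p = 2.7e-07). Both separated the groups completely. Pdcd1lg2, the PD-1 ligand PD-L2, was higher by 1.55 ± 0.31 and the oxysterol enzyme Ch25h by 1.57 ± 0.37, which was not called without sensitized mice 1 and 6 (1.18, adjusted p = 0.0528). The lipoxygenase Alox15 and F13a1, also IL-4 targets in macrophages, were not called, at 0.92 ± 0.56 and -0.10 ± 0.17. Within the DC-SIGN family directions were opposed: Cd209f and Cd209g, named after their values were seen, were lower at -1.0 ± 0.24 and -0.85 ± 0.21, with all 8 sensitized mice below all naive mice, and Cd209d was higher by 0.70 ± 0.17.

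The palindrome that STAT6 prefers, TTC and GAA with any 4 bases between them, which reads alike on both strands, stood in 6.21% of the promoters of genes called higher, in 4.57% of those called lower and in 5.18% of those of all genes tested. They were in 1 of the 10 goblet cell promoters at hand and 1 of the 23 cell cycle promoters. For Clca1 and Muc5ac no promoter was used here. The 60 bases around the match are shown for 4 genes called higher as examples, with the match in capitals.
Capn9 (chr8:124575942-124576001, plus strand): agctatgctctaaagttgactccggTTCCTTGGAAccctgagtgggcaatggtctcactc
Ccl17 (chr8:94810274-94810333, plus strand): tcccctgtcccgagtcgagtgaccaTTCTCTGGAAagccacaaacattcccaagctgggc
Cd209e (chr8:3854331-3854390, minus strand): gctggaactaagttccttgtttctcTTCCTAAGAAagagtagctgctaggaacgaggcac
Pdcd1lg2 (chr19:29410812-29410871, plus strand): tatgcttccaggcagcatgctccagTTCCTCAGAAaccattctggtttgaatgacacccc
The match began 144, 154, 79 and 82 bases before the start in Capn9, Ccl17, Cd209e and Pdcd1lg2. The shares of promoters with these letters in all genes and in the called genes differed by about 1 percentage point, and nothing about STAT6 binding follows from them.

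Dendritic cell genes were called higher in 8 of 14 measured genes, 5 without sensitized mice 1 and 6. Itgax, the integrin CD11c of dendritic cells and alveolar macrophages, ranged from 11.26 to 12.66 (median 11.89) in sensitized and from 10.45 to 10.89 (median 10.68) in naive lungs (1.26 ± 0.17, adjusted p = 2.17e-08). Flt3, the growth factor receptor of dendritic cells, was higher by 0.47 ± 0.08, Batf3, a factor of cross-presenting dendritic cells, by 1.04 ± 0.22 and the maturation marker Cd83 by 0.61 ± 0.14. Zbtb46 and Siglech, markers of conventional and plasmacytoid dendritic cells, were not called, at -0.12 ± 0.08 and -0.10 ± 0.10. MHC class II genes were called higher in 8 of 10 genes, 5 without sensitized mice 1 and 6, but by little, such as H2-Aa by 0.37 ± 0.06 (adjusted p = 1.95e-07) and the invariant chain Cd74 by 0.17 ± 0.04. Of 12 costimulatory and checkpoint genes 7 were called higher and 1 lower, 3 and none without sensitized mice 1 and 6, with Cd86 at 0.70 ± 0.14, Cd200r1 at 0.83 ± 0.17 and Icosl at -0.21 ± 0.06.

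Alveolar macrophage markers were called higher in 6 of 15 genes and lower in 3, in 4 and none without sensitized mice 1 and 6. The lineage genes Marco, Siglecf and Pparg were not called, at -0.07 ± 0.10, -0.23 ± 0.14 and 0.11 ± 0.08. Of the 3 lower members, Fabp4 at -1.07 ± 0.38 and Cidec at -1.16 ± 0.33 are adipocyte genes too, and the third is the engulfment receptor Mertk at -0.21 ± 0.07. Of 17 monocyte and interstitial macrophage markers 7 were called higher, 2 without sensitized mice 1 and 6, among them the chemokine receptor Ccr2 by 0.70 ± 0.14 and the complement subunits C1qa by 0.76 ± 0.16 and C1qc by 0.73 ± 0.17. Dcstamp, a fusion receptor of osteoclasts and giant cells, was higher by 1.72 ± 0.33 and ranged from 6.32 to 9.42 (median 7.16) in sensitized and from 5.58 to 6.13 (median 5.97) in naive lungs. Its partner Ocstamp, the osteoclast receptor Tnfrsf11a and the proton pump subunit Atp6v1b1, all named after their values were seen, were higher by 1.24 ± 0.29, 0.57 ± 0.12 and 1.05 ± 0.19 without overlap. Without sensitized mice 1 and 6 the difference of Ocstamp was 0.60, not past the threshold (adjusted p = 0.188).

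Eosinophil and neutrophil lists had called shares near or below those of all genes. The mast cell and basophil shares were a little above the 14.2% of all genes called higher and the 12.3% called lower. Of 7 measured eosinophil genes 1 was called higher, none without sensitized mice 1 and 6, Cd300lf by 0.43 ± 0.15, a receptor that monocytes share. The granule genes Epx and Prg2 differed by 0.04 ± 0.19 and 0.48 ± 0.28 and the eotaxin receptor Ccr3 by 0.48 ± 0.39. Of 14 neutrophil markers 1 was called higher, Lcn2 by 0.66 ± 0.13, which epithelium also makes. Of 11 mast cell and basophil genes 2 were called higher and 2 lower, 1 and 1 without sensitized mice 1 and 6, and the proteases were opposed: Mcpt2, of mucosal mast cells, ranged from 6.04 to 8.73 (median 6.72) in sensitized and from 4.76 to 5.37 (median 5.10) in naive lungs (1.99 ± 0.37, adjusted p = 3.34e-05), and Mcpt4, of connective tissue mast cells, from 5.81 to 6.44 (median 6.09) and from 6.46 to 7.37 (median 6.76) (-0.75 ± 0.18, adjusted p = 0.000922). Neither overlapped between the groups, in opposite directions. The other 2 called members were Hdc, the histamine-forming enzyme, at 0.33 ± 0.09 and the transcription factor Gata2 at -0.32 ± 0.09. Mcpt1, Cpa3, Tpsb2 and Kit were not called, at 0.81 ± 0.32, -0.19 ± 0.18, -0.10 ± 0.16 and -0.07 ± 0.08.

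Interferon-stimulated genes were called higher in 7 of 23 measured genes and in 1 without sensitized mice 1 and 6, the GTPase Mx1 (0.75, adjusted p = 0.0115). Their list mean was 10.73 and 11.13 in mice 1 and 6 and 9.88 to 10.24 in the other 6 sensitized mice, against 9.65 to 10.27 in naive mice. Acute inflammatory and acute phase genes were called higher in 4 of 20, with 1, Lcn2, without sensitized mice 1 and 6: Saa3 by 1.57 ± 0.42, Timp1 by 1.12 ± 0.33, Lif by 0.71 ± 0.19 and Lcn2. Of 10 complement genes 5 were called higher and 3 lower, 2 and none without sensitized mice 1 and 6, with the inhibitor Cd55 at 0.32 ± 0.06 and the receptor C5ar1 at -0.37 ± 0.11. Of 16 eicosanoid genes 5 were called higher, 2 without sensitized mice 1 and 6, led by thromboxane synthase Tbxas1 at 0.86 ± 0.14 and the prostacyclin receptor Ptgir at 0.78 ± 0.15, and of 10 arginine, polyamine and nitric oxide genes 3, none without these mice, led by the arginine transporter Slc7a2 at 0.50 ± 0.13. Of 19 matricellular and protease remodelling genes 8 were called higher, and Mmp12, the macrophage elastase, ranged from 10.73 to 13.19 (median 11.53) in sensitized and from 8.50 to 9.82 (median 9.37) in naive lungs (2.55 ± 0.40, adjusted p = 7.11e-07). It was the 1 member called without sensitized mice 1 and 6 (2.16, adjusted p = 0.000284).

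**Figure D4:**
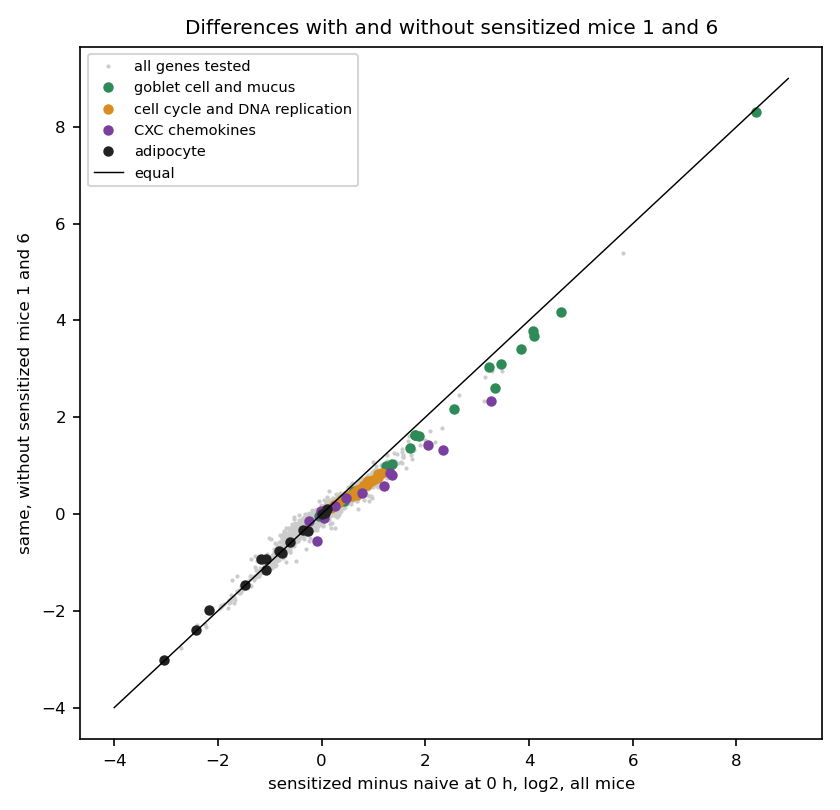
Sensitized minus naive log2 difference of each gene at 0 h with all 8 sensitized mice (horizontal axis) and without sensitized mice 1 and 6 (vertical axis), with 4 gene lists in colour and a line where both are equal. Clca1, at 8.37 and 8.30, lies on the line, and Cxcl5, at 2.35 and 1.32, lies below it.

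Of 13 club cell genes 3 were called higher and 2 lower, 1 and none without sensitized mice 1 and 6, with Lypd2, a small secreted protein, at 1.01 ± 0.22 and the secretoglobin Scgb3a2 at -0.34 ± 0.10. Of 16 surfactant and alveolar type II genes 5 were called higher and 1 lower, 5 and none without sensitized mice 1 and 6: the collectins Sftpd and Sftpa1 were at 0.21 ± 0.04 and 0.12 ± 0.02, complement component Hc at 0.32 ± 0.05 and the surfactant protein Sftpb at -0.19 ± 0.06. Alveolar type I genes were called lower in 4 of 16 and endothelial genes in 6 of 24, such as Flt1, a VEGF receptor, at -0.30 ± 0.08, and none of these was called without sensitized mice 1 and 6. The adhesion molecule Vcam1 was the 1 endothelial gene called higher (0.29 ± 0.10). Of 6 lymphatic genes 2 were called lower, of 6 tuft and neuroendocrine genes 1 was called higher, Dclk1 by 0.62 ± 0.17, and of 16 smooth muscle and pericyte genes 3 were called higher, with Acta2 at 0.19 ± 0.06, and 1 lower, Notch3 at -0.23 ± 0.06. No lymphatic, tuft, neuroendocrine, smooth muscle or pericyte gene, nor Vcam1, was called without sensitized mice 1 and 6. None of 10 mesothelial or 3 red cell genes was called. Over all genes 14.2% were called higher and 12.3% lower. The share of tuft and neuroendocrine genes called higher was near the first of these. The share of smooth muscle and pericyte genes called in either direction was near the 26.5% of all genes.

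Among genes called lower were members of the fibroblast, adipocyte and skeletal muscle lists. The skeletal muscle calls went from 5 to 1 without the 6 arrays with squamous signal. Of 24 fibroblast and collagen genes 8 were called lower and 1 higher, 4 and none without sensitized mice 1 and 6. Dcn, the collagen-binding proteoglycan decorin, ranged from 10.60 to 11.65 (median 10.85) in sensitized and from 11.83 to 12.47 (median 11.96) in naive lungs (-1.0 ± 0.18, adjusted p = 2.53e-05). Lum, its relative lumican, ranged from 6.54 to 8.27 (median 8.01) and from 8.48 to 10.21 (median 8.75) (-1.22 ± 0.25, adjusted p = 0.000149). No value overlapped in either gene. Pi16, a marker of adventitial fibroblasts, was at -0.68 ± 0.17 and the fibulin Fbln1 at -0.40 ± 0.10, while the collagen Col13a1 was at -0.25 ± 0.07 and the alveolar fibroblast gene Npnt at -0.23 ± 0.08. Named after their values were seen, Fbln2, Aebp1, Cd248 and Gpc6, further genes of matrix or stroma, were at -0.69 ± 0.15, -0.54 ± 0.11, -0.51 ± 0.13 and -0.61 ± 0.15, each below all naive mice in 8 of 8. Scara5, a ferritin receptor of fibroblasts, ranged from 7.09 to 9.15 (median 8.35) in sensitized and from 9.61 to 10.19 (median 9.92) in naive lungs (-1.63 ± 0.33, adjusted p = 0.000113). Gdpd2, a glycerophosphodiesterase, was at -0.96 ± 0.16 and the antioxidant enzyme Pon1 at -1.36 ± 0.27.

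The adipocyte list moved in the same direction beside these genes. Of 15 measured, 8 were called lower and none higher, 5 without sensitized mice 1 and 6, with list means of 8.46 to 9.42 in sensitized and 9.47 to 10.32 in naive mice. Adipoq, the fat hormone adiponectin, ranged from 4.88 to 8.99 (median 7.04) in sensitized and from 9.11 to 11.01 (median 10.19) in naive lungs (-3.03 ± 0.79, adjusted p = 0.00259), and Car3 and Pck1, enzymes high in fat, were at -2.43 ± 0.69 and -2.17 ± 0.59. The part of these adipocyte values in the lower fibroblast genes was not tested. A fit with muscle, squamous and adipocyte means as covariates called 1181 genes lower, against 1607 in the reported fit. That count covers all genes and does not single out the fibroblast list. Cyp2e1, an ethanol-oxidizing cytochrome, was at -1.72 ± 0.41, the largest fall among 6 of 22 cytochrome and conjugation genes called lower, 2 without sensitized mice 1 and 6; Gsto1, a glutathione transferase, was the 1 called higher (0.78 ± 0.11). Tmem45b, a membrane protein, ranged from 5.0 to 7.37 (median 5.92) in sensitized and from 7.54 to 9.36 (median 8.48) in naive lungs (-2.40 ± 0.63, adjusted p = 0.00304).

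Skeletal muscle genes were called lower in 5 of 15 genes, 1 without sensitized mice 1 and 6. Acta1, the actin of skeletal muscle, ranged from 6.45 to 7.52 (median 7.02) in sensitized and from 8.01 to 13.88 (median 8.65) in naive lungs (-2.71 ± 0.73, adjusted p = 0.0037). Naive mice 1 and 3 held its 2 highest values, 12.79 and 13.88, but the other 6 naive mice also lay above all sensitized mice. Without the 6 arrays with squamous signal Acta1 was the 1 member called (-1.48, adjusted p = 0.0294), and the list had a median difference of -0.07, against -1.11 with all mice. Squamous genes such as Krt6b, Dsc3, Tgm3 and Lce1b, at -1.29 ± 0.49, -1.26 ± 0.48, -1.56 ± 0.59 and -1.79 ± 0.67, had their 2 highest naive values in mice 1 and 3 and were not called without the 6 arrays, and of 17 basal and squamous genes 1 was called lower, Tgm3, none without sensitized mice 1 and 6. Without the 6 arrays 1 basal and squamous gene was called higher and none lower. Of 16 cardiac genes 1 was called lower, Myl3 at -1.94 ± 0.58, none without sensitized mice 1 and 6. Without the 6 arrays 2 cardiac genes were called lower, with a list median of -0.95 against -0.73 with all mice.

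Of 17 circadian genes 2 were called higher and 1 lower: Npas2 by 0.60 ± 0.19, Bhlhe40 by 0.32 ± 0.12 and Bhlhe41 at -0.45 ± 0.10, a share of calls below the 26.5% of all genes, and none was called without sensitized mice 1 and 6. Of 14 glucocorticoid-responsive genes 1 was called higher and 5 lower, 1 and 1 without sensitized mice 1 and 6, with Pdk4, a kinase that blocks pyruvate use, at -0.91 ± 0.19, the kinase Sgk1 at -0.17 ± 0.04 and the phosphatase Dusp1 at -0.39 ± 0.12, and of 20 immediate early genes 1 higher, Egr2 by 0.64 ± 0.22, and 3 lower, none of them without sensitized mice 1 and 6. Of 16 cholesterol and fatty acid synthesis genes 3 were called higher and 1 lower, by at most 0.22, and none without sensitized mice 1 and 6. Their share of calls was near the 26.5% of all genes. Several of the genes called lower with the largest test statistics had small but even differences, such as Zcchc24 at -0.22 ± 0.03 (adjusted p = 2.94e-07), Ccnd2, a cyclin of cells leaving rest, at -0.30 ± 0.06, and the endothelial receptor Cd93 at -0.20 ± 0.04. Probe sets disagreed for some named genes: at least 1 other probe set was not called for Acta2, C5ar1, Ccnd2, Ccr2, Cd55, Cd93, Cxcl12, Dclk1, Fabp4, Fbln1, Flt1, H2-Aa, Icos, Icosl, Npas2, Npnt, Pi16, Slc7a2, Tgm3 and Vcam1, and was called higher for Dnajc10 and Il13ra1. Further genes named here that were not called without sensitized mice 1 and 6 were Cdh5, Sdc1, Mcm7, Tyms, Foxm1, Hmmr, Kif11, Hdc, Gata2, Krt6b, Dsc3, Lce1b, Tnfrsf4, Cxcl12, Cd83, C1qc, Col13a1, Npnt, Cd248 and Derl3.

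The sensitized minus naive difference was not the same at 0 h as at 2 h in 873 genes (6.69%) and as at 168 h in 253 genes (1.94%). The 0 h groups enter both contrasts. Without sensitized mice 1 and 6 the counts of genes were 204 and 8. List counts of contrasts below are given with all mice only. Of the goblet cell genes 13 of 20 had a higher difference at 0 h than at 2 h, against 4.34% of all genes, and 2 of 20 than at 168 h, against 0.973%. None had a lower one, against 2.34% and 0.965% of all genes. Clca1 averaged 14.08 ± 0.14 in sensitized and 5.71 ± 0.70 in naive lungs at 0 h, 10.40 ± 3.23 and 5.39 ± 0.76 at 2 h, and 13.16 ± 1.05 and 5.39 ± 0.30 at 168 h (SD). Muc5ac averaged 10.73 ± 0.70 in sensitized and 7.28 ± 0.14 in naive lungs at 0 h, 8.16 ± 1.33 and 7.15 ± 0.16 at 2 h, and 8.62 ± 0.52 and 7.24 ± 0.21 at 168 h. The SD among sensitized mice was larger at 2 h than at 0 h in both genes, and the naive means lay within 1 log2 unit of each other. The difference of Gcnt3 equalled 4.08 (0 h), 0.54 (2 h) and 3.14 (168 h), and that of Retnlb 3.13, 0.77 and 1.31.

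Cell cycle genes were called higher in 27 of 27 at 0 h and in none at 2 h or 168 h, where 1.84% and 3.4% of all genes were called higher. The difference itself was larger at 0 h than at 2 h in 8 of them and than at 168 h in 4. Sensitized mice 1 and 6, at 9.78 and 9.75, had the highest list means at 0 h, and these counts were not made without them. Mcm3 averaged 10.95 ± 0.45 in sensitized and 10.26 ± 0.13 in naive lungs at 0 h, 10.22 ± 0.27 and 10.24 ± 0.17 at 2 h, and 10.36 ± 0.15 and 10.34 ± 0.22 at 168 h (SD). Of the centriole amplification genes 6 had a larger difference at 0 h than at 2 h and 3 than at 168 h; Ccno averaged 10.56 ± 0.41 and 9.29 ± 0.20 at 0 h, 9.61 ± 0.36 and 9.26 ± 0.08 at 2 h, and 9.83 ± 0.20 and 9.31 ± 0.16 at 168 h, sensitized before naive at each time. Plasma cell genes differed more at 168 h in 2 members: Igha averaged 12.87 ± 0.50 in sensitized and 12.49 ± 0.21 in naive lungs at 0 h and 13.90 ± 0.63 and 12.24 ± 0.14 at 168 h, and Derl3, a protein of endoplasmic reticulum degradation, had differences of 0.74 at 0 h and 1.88 at 168 h.

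Genes with a lower difference at 0 h than at 2 h included Il4 and glucocorticoid-responsive genes. Il4 averaged 6.66 ± 0.54 in sensitized and 6.28 ± 0.12 in naive lungs at 0 h and 8.55 ± 2.21 and 6.28 ± 0.18 at 2 h (SD). Zbtb16, a zinc finger factor induced by glucocorticoids, averaged 9.88 ± 1.01 in sensitized and 10.69 ± 1.04 in naive lungs at 0 h, 11.06 ± 0.86 and 9.66 ± 0.27 at 2 h, and 10.74 ± 0.78 and 9.52 ± 0.75 at 168 h. Fkbp5, a cochaperone of the glucocorticoid receptor, averaged 9.41 ± 0.34 and 9.60 ± 0.79 at 0 h and 10.28 ± 0.59 and 8.93 ± 0.23 at 2 h. In both, sensitized means were higher and naive means lower at 2 h than at 0 h. At 0 h naive mice 6 and 7 were the highest naive mice in both genes. They stood at 12.04 and 12.00 in Zbtb16, and the other naive mice at 8.90 to 10.87. In Fkbp5 they stood at 10.95 and 10.74, and the others at 8.93 to 9.41. The part of these mice in the contrasts was not tested. Clock genes had other naive means at 2 h, a difference not tested: Npas2 averaged 8.75 ± 0.47 in naive lungs at 0 h and 10.12 ± 0.18 at 2 h, and Per3 12.40 ± 0.26 and 11.68 ± 0.21, and the clock hours of sampling are not stated.

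**Figure D5:**
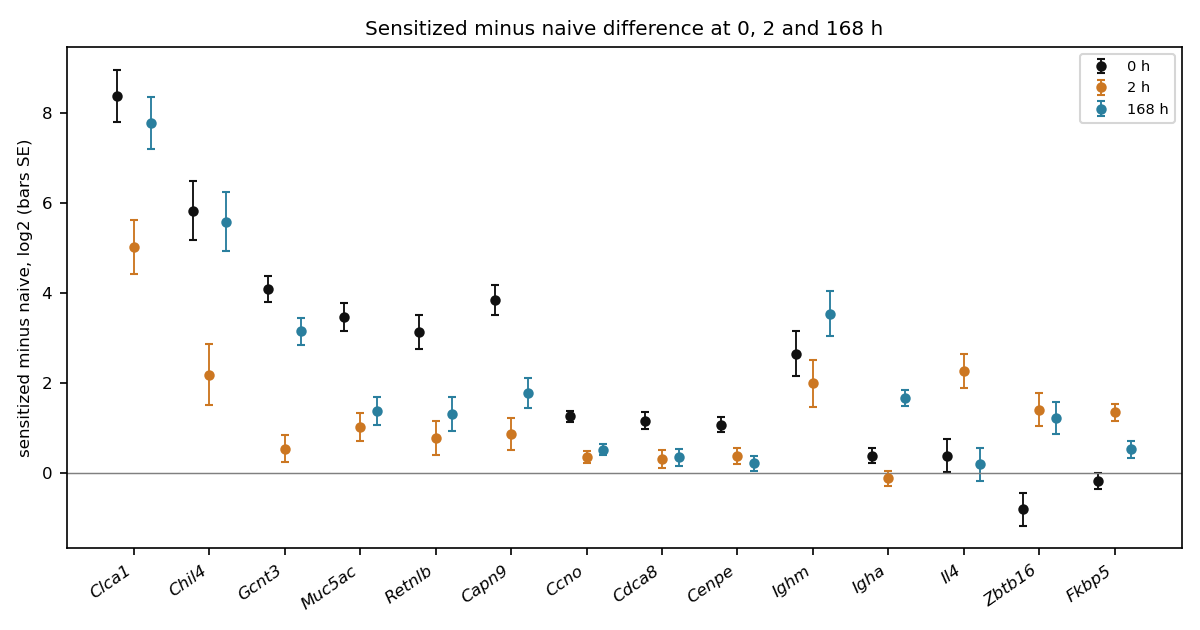
Sensitized minus naive log2 difference with SE bars (vertical axis) of 14 genes at 0, 2 and 168 h. Clca1, Chil4, Gcnt3 and Muc5ac have their largest of the 3 differences at 0 h, Igha at 168 h and Il4 at 2 h.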

How the data were processed

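Whole-lung RNA of 123 mice was hybridized to 3′ expression arrays, 1 per mouse, after mirVana extraction, per the labels' protocols. The values are log2 signals that the authors deposited in 1 table, made by RMA per the submitters' processing notes, which give no version; RMA as a method corrects background, equalizes the arrays' distributions and summarizes probes, so that a shift of most genes in 1 direction would be removed. Scanner intensities were not used here. Precision is limited by how many arrays there are. Of 25697 probe sets, 22478 carried 1 gene symbol, and each of 13053 genes was represented by its brightest probe set, averaged over every array. A limma 3.58.1 model (R 4.3.3) with 16 group means was fitted to all 123 arrays (107 residual degrees of freedom), with adjusted p-values by Benjamini-Hochberg within each contrast and a threshold of 0.05. The labels do not say whether mice shared litters, cages or batches, so p-values measure the spread between these animals, taken over all 16 groups. They and the SEs therefore do not follow the spread of the 0 h mice alone. Retnlb, at ± 0.37, had SDs of 1.70 in sensitized and 0.16 in naive lungs at 0 h. Clca1, at ± 0.58, had SDs of 0.14 and 0.70 there, and of 3.23 in sensitized lungs at 2 h. The model was tested on simulated data. Permutation tests used scipy 1.17.1. No dim probe sets were left out. The genes named were the 40 highest and 30 lowest differences, the 15 largest test statistics in each direction, 10 contrasts in each direction with 2 h and with 168 h, and members of the lists; others are said to be named after their values were seen. The members and gene lists were chosen with earlier results of these data known. Alternatives covered arrays entering the fit, array weights, variance prior, normalization, probe set choice, dim genes, other-tissue signal, size of difference and single mice left out.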

Additional observations from a re-analysis of the deposited data

Results flagged for a closer look

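In 28 of 498 checks of a group of 8 mice, 1 mouse lay farther from its nearest neighbour than 0.526 of the group's range, Dixon's 95% value; chance gives this in about 1 group in 20. Naive mouse 3 was the far mouse in 9 of them. It was the highest naive mouse in Alox15 (11.26), Ccl24 (9.11), Scin (7.17), Mzb1 (9.83), Cpa3 (8.76), Tpsb2 (8.55) and Lum (10.21), and the lowest in Rfx3 (10.08) and in the mean of the centriole amplification genes (8.95). Naive mouse 1 was highest in Chil4 (12.24) and lowest in Pi16 (10.92), Fbln1 (10.58) and the goblet cell mean (7.89). Both mice carried squamous and skeletal muscle signal, whose part in these values was not tested. Sensitized mouse 1 was lowest in Siglecf (8.49), Fbln1 (9.99) and Per3 (11.40) and highest in Dsc3 (6.59), and sensitized mouse 6 was highest in Galnt12 (10.23). Among the other sensitized mice, mouse 7 was lowest in Chil3 (13.37) and Atp6v1b1 (8.02) and highest in Clec4e (8.18), mouse 5 was highest in Rfx2 (9.06) and mouse 8 in Pparg (9.76). Among the other naive mice, mouse 7 was highest in Creb3l1 (9.86) and lowest in Cd8b1 (6.89), mouse 4 was highest in Cenpe (6.24), and mice 2 and 6 were lowest in Slc6a20a (7.01) and Vcam1 (11.74).

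The contrast of the sensitized minus naive difference at 0 h with that at 2 h was tested in the limma model, and its highest called values were in genes of mucus and the chitinase family. They were 3.63 for Chil4, 3.54 for Gcnt3, 3.36 for Clca1, 2.97 for Capn9, 2.66 for Scin, 2.57 for Slc26a4, 2.44 for Muc5ac, 2.37 for Retnlb, 2.22 for Fxyd4 and 2.21 for Fcgbp. The lowest called values were -2.22 for Zbtb16, -2.02 for Cyp2e1, -1.89 for Il4, -1.76 for Krtap17-1, -1.66 for Il1f9, -1.61 for Fam107a, -1.57 for Map3k6, -1.53 for Fkbp5, -1.53 for the small heat shock protein Hspb1 and -1.50 for Clec4e, a lectin receptor of myeloid cells. In Zbtb16, Fam107a, Map3k6, Fkbp5 and Hspb1 naive mice 6 and 7 were the highest naive mice at 0 h.

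Against 168 h the highest called contrasts were 2.08 for Muc5ac, 2.07 for Capn9, 1.82 for Retnlb, 1.10 for Npas2, 1.02 for the early response factor Egr3, 0.87 for Cenpe, 0.83 for the replication factor Mcm10, 0.82 for Gpr85, 0.80 for the hexokinase Hk3 and 0.80 for the DNA helicase Brip1. The lowest were -2.04 for Zbtb16, -1.61 for Fam107a, -1.37 for Oosp1, -1.28 for Igha, -1.14 for Derl3, -0.98 for Map3k6, -0.96 for the noradrenaline transporter Slc6a2, -0.91 for Gabrr2, -0.76 for the kinesin Kif5c and -0.75 for Per3.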

How the results depend on the processing

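The count of 3457 called genes depended on sensitized mice 1 and 6. Leaving out single mice gave 2003 to 4033, with 2003 without sensitized mouse 6 and 2044 without sensitized mouse 1, and leaving out both, an alternative chosen after seeing the data, gave 683, each of them among the 3457. The share of calls that were higher was 53.5% with all mice, 61.5% and 60.8% without sensitized mouse 1 or 6, 78.6% without both and 74.7% of 546 without both and the arrays with squamous signal, also chosen after seeing the data. Every probe set tested on its own gave 5591 calls, and a least difference of 1 left 171, 64.9% of them higher. The count of 873 contrasts with 2 h was 2825 with array weights, 63 with a least contrast of 1 and 204 without sensitized mice 1 and 6. The count of 253 contrasts with 168 h was 22 with the compared arrays alone, 453 with array weights, 396 over every probe set, 461 without arrays with squamous signal, 10 with a least contrast of 1 and 8 without sensitized mice 1 and 6. Without the 6 arrays with squamous signal, calls higher were 1 in place of 3 of the motile cilia, club cell and arginine lists and 5 in place of 3 of the cholesterol and fatty acid list, and calls lower were 3 in place of 1 of the circadian list and 1 in place of 3 of the immediate early list. The causes were not tested. The pyruvate carboxylase control, chosen after seeing the data, differed by 0.51, against 0.01 for actin; the planned glyceraldehyde dehydrogenase control was not run. Over 240 named genes and their alternatives 5827 of 6210 values kept direction and call; 347 lost the call, 34 gained it and 2 reversed, Cxcl12 at 0.27 with the probe set of largest interquartile range and Fabp4 at 0.10 with the adipocyte mean among the covariates. No paired analysis was possible because mice were numbered by their place among the deposited samples, which pairs none of them.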

Other observations

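Some genes among the 40 highest differences belong to no list described above. AA467197, named from its array annotation alone, ranged from 8.89 to 12.01 in sensitized and from 6.24 to 7.17 in naive lungs (3.48 ± 0.44, adjusted p = 9.53e-10), and Mrgprg, an orphan receptor of the Mas-related family, from 7.05 to 9.09 (median 7.59) and from 5.81 to 6.92 (median 6.10) (1.57 ± 0.25, adjusted p = 7.85e-07). Neither overlapped between the groups, and both were called without sensitized mice 1 and 6, at 2.95 and 1.17. Tomm20l, a relative of a mitochondrial import receptor, was higher by 1.26 ± 0.13 with no overlap. Ly6i and Lemd1 were higher by 1.74 ± 0.33 and 1.63 ± 0.32, and in each 7 of 8 sensitized mice lay above all naive mice. Among genes called lower, Retn, the mouse adipocyte hormone resistin, was at -1.48 ± 0.37, with 7 of 8 sensitized mice below all naive mice, and Medag, a gene of fat cell differentiation, was at -0.50 ± 0.10 with all mice and -0.57 without sensitized mice 1 and 6 (adjusted p = 4.82e-05).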
